A study of Mus musculus with 18 samples.

Results

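The heart cell's internal calcium store depends on a small set of proteins, and 8 of their genes were followed here: Ryr2, Trdn, Casq2, Hrc, Atp2a2, Pln, Sln and Slc8a1. They were taken by name, among 18193 genes with a probe set of their own on the array, and every one of the 8 was represented, by 25 probe sets in all. The cells were mouse embryonic stem cells of line D3, studied as they turned into heart cells. In a stable clone, an enhancer of Nkx2-5 with the minimal promoter of hsp68 drove green fluorescent protein (GFP), and embryoid bodies, which are aggregates grown in suspension, were dissociated and sorted. On days 5, 6, 7 and 8 the sort gave a GFP-positive and a GFP-negative fraction, each with 1 array from batch 1 and 1 from batch 2 (16 arrays). A different stable clone, with neomycin resistance driven by the promoter of Myh6 (alpha myosin heavy chain), gave antibiotic-selected cardiomyocytes (2 arrays), for which the labels name neither day nor batch. All embryoid bodies grew with ascorbic acid in the medium. No label says that the 2 arrays of a group had cultures of their own, so p-values here reflect the spread between samples alone, and that spread may be technical.

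In a working heart muscle cell, a small calcium inflow opens ryanodine receptors in the wall of the sarcoplasmic reticulum, and stored calcium floods the cytosol. Calcium-binding proteins inside the store buffer it and are tethered to the channel, a pump driven by ATP returns it to the store, and an exchanger in the surface membrane carries the rest out of the cell. Phospholamban and sarcolipin slow the pump, which makes the speed of relaxation adjustable.

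Values are MAS5 signals, which are probe set intensities on a linear scale that the authors brought to a common trimmed mean on each array. Array medians ranged over 18.2 to 29.3, and 13379 genes with 2 or more arrays at or above 22.5 (the overall median) were tested with limma on log2(signal + 6.8). All 8 genes passed, but Sln did so only through the cardiomyocyte arrays and Trdn on only 2 of the 16 sorted arrays. Differences below are log2 differences on that scale with their standard errors (SE), which understate changes of dim genes, and a call means an adjusted p under 0.05. The number of arrays limits the precision, since each group has n = 2.

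Nkx2-5, the gene whose enhancer drove GFP, read 249.2 and 323.2 in day 8 GFP-positive cells, against 76.3 and 79.4 in day 8 GFP-negative cells. The summed signal of 17 cardiomyocyte genes was 103086.3 to 103748.4 in selected cardiomyocytes, 33355.4 to 34202.7 in day 8 GFP-positive cells and 5336.1 to 10094.3 in day 8 GFP-negative cells. On day 6 that sum overlapped between the fractions, at 3089.6 to 21747.0 in GFP-positive and 3189.3 to 9050.8 in GFP-negative cells. The sum of 12 endothelial markers was 314.0 to 333.6 in selected cardiomyocytes, against 7469.7 to 8347.9 in day 8 GFP-positive cells, and that of 11 endoderm markers was 367.3 to 447.5, against 18637.3 to 20796.6. In such bulk samples, fewer cells of a type and less RNA per cell cannot be told apart.

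RefSeq places the genes (mouse build GRCm38.p6) at chr13:11553099-12106945 (Ryr2), chr10:33083483-33476709 (Trdn), chr3:102086415-102146514 (Casq2), chr7:45335269-45338973 (Hrc), chr5:122453513-122502225 (Atp2a2), chr10:53337686-53345999 (Pln), chr9:53850251-53853849 (Sln) and chr17:81373105-81738387 (Slc8a1). RefSeq promoter windows of the same build, from 250 bases before to 50 bases after the start of the gene, were found for 5 of the 8 genes, Casq2, Hrc, Pln, Ryr2 and Slc8a1. Slc8a1, Casq2 and Pln each hold a match to the GATA core, the NKX2-5 core or the MEF2 site, which heart transcription factors read. The upstream 250 bases are shown for these genes. Each runs 5′ to 3′ on the strand of its gene, which is minus for Slc8a1 (chr17:81738388-81738637) and plus for Casq2 (chr3:102086165-102086414) and Pln (chr10:53337436-53337685). Capitals mark matches, on either strand, to the GATA core AGATAA, the NKX2-5 core AAGTG and the MEF2 site.
Slc8a1: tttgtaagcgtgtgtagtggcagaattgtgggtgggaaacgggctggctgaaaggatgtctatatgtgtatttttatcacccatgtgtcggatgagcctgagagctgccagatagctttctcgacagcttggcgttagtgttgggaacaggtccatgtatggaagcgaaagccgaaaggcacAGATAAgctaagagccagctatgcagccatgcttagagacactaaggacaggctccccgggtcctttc
Casq2: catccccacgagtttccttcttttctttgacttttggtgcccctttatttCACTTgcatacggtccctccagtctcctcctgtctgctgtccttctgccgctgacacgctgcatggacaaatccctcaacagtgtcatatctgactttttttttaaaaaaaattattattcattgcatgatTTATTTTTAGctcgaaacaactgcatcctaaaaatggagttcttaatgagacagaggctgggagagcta
Pln: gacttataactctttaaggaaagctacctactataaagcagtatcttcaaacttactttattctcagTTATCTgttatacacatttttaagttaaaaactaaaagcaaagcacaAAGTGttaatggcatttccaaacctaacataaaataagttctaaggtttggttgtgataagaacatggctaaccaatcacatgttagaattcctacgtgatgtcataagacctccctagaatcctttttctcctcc

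The GATA core lay in 2 of the 5 windows (Slc8a1 and Pln) and in 11.2% of 32851 mouse promoter windows of the same length. The NKX2-5 core lay in 2 of the 5 (Casq2 and Pln) and in 46.4% of all windows. The MEF2 site lay in Casq2, from 69 to 60 bases before the start, and in 3.19% of all windows. The CArG box, in 1.63% of all windows, and the TBX core AGGTGT, in 13.7%, were in none of the 5. The E-box CANNTG lay in all 5 and in 72.3% of all windows, and in Casq2 1 E-box overlaps the NKX2-5 core at 200 bases before the start. These matches describe letters in the window and were not tested for binding.

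The plainest order across the groups was shared by all 8 genes: both cardiomyocyte arrays read higher than every sorted array on the probe set used for the gene. That probe set was chosen by mean signal over all 18 arrays, which favours probe sets bright in cardiomyocytes. Some others broke the order: Atp2a2 1437797_at read 59.1 and 54.7 in cardiomyocytes and at least 67.1 on sorted arrays. Slc8a1 1420210_at read 23.1 and 18.9, against up to 25.0, and Sln 1420883_at read 2.9 and 1.4, against up to 12.2. Ryr2 1421126_at (8.5 and 10.7, against up to 15.1) and Atp2a2 1443551_at (9.3 and 2.2, against up to 18.3), both too dim to test, broke it too. Among the sorted groups the genes parted. Hrc and Slc8a1 were highest in GFP-positive cells of days 7 and 8, Ryr2 likewise with a wide spread between batches on days 5 and 6, Casq2 rose with the days in both fractions, Pln and Trdn stayed dim, Sln stayed at the floor of the array, and Atp2a2 was bright in every group.

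**Figure D1:**
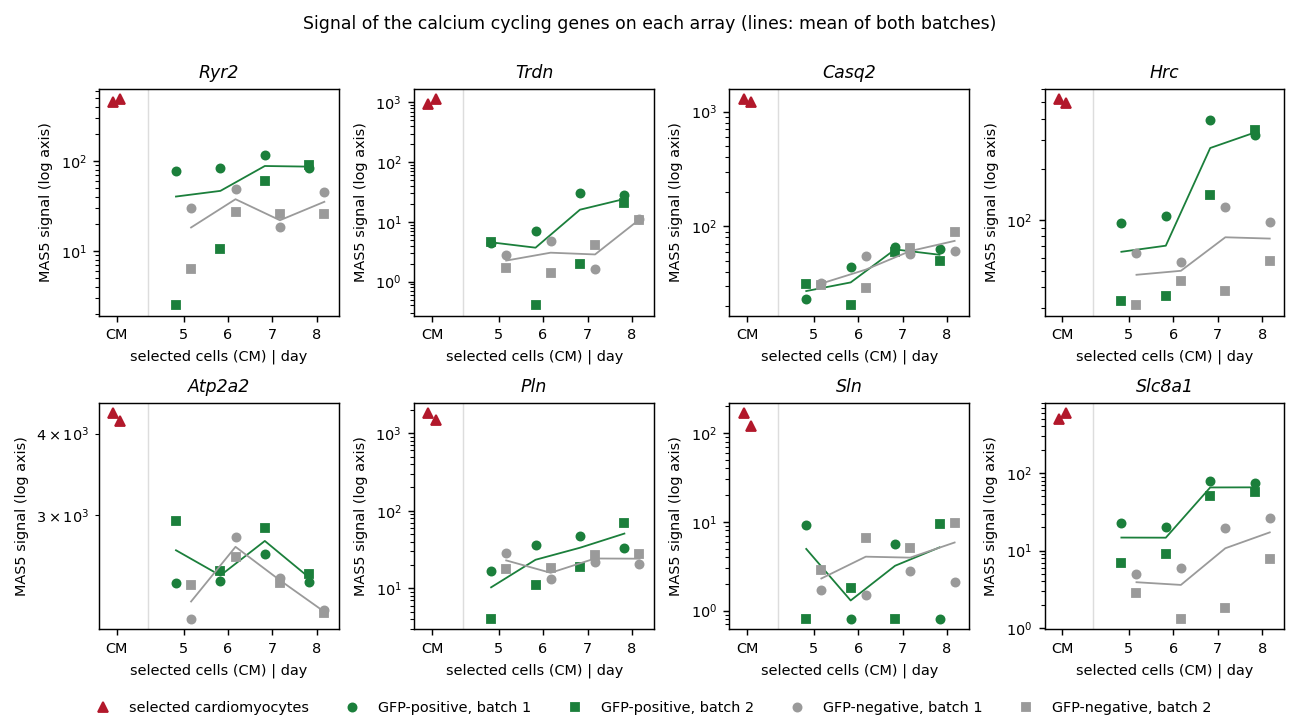
Signal of each gene on every array (log axis), with selected cardiomyocytes (CM, red triangles) to the left and days 5 to 8 to the right, GFP-positive in green and GFP-negative in grey, batch 1 as circles and batch 2 as squares; lines join the means of the 2 batches. Both cardiomyocyte arrays are above all 16 sorted arrays in every panel, and Hrc and Slc8a1 separate the fractions on days 7 and 8.

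The design poses 3 questions: whether the genes differed between GFP-positive and GFP-negative cells, whether they changed from the early to the late days within a fraction, and how far selected cardiomyocytes stood above day 8 cells. GFP-positive cells exceeded GFP-negative cells over all days for 1 of the 8 genes, Slc8a1, while 358 of 13379 genes were called (2.68%). The median difference of the 8 was 0.32, against -0.015 over all genes tested, and within batches 1 and 2 it was 0.69 and 0.16. With batch as a covariate, which the batch numbers of the titles allow, 2 of the 8 were called, Slc8a1 and Hrc, beside 5.41% of all genes. Day by day none of the 8 was called on days 5, 6, 7 or 8, where limma called 0.0149%, 0%, 0% and 2.58% of all genes and 807, 324, 1135 and 2476 genes had an unadjusted p under 0.05. On day 8 the covariate fit called 2 of the 8, again Slc8a1 and Hrc, and 5.27% of all genes.

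Within GFP-positive cells, 5 of the 8 rose on days 7 and 8 relative to days 5 and 6 (Hrc, Slc8a1, Casq2, Pln and Trdn), while 19.4% of all genes were called. The median difference of the 8 was 1.13, against 0.093 over all genes, and 0.72 and 1.30 within batches 1 and 2. With the batch covariate 6 of the 8 were called, Ryr2 being added, beside 25.3% of all genes. With quantile normalization only Hrc and Slc8a1 passed (2 of 8), and with equal array medians 3 passed, Hrc and Slc8a1 higher and Atp2a2 lower, by 0.41 where that scaling shifted the median of all genes by -0.41. Without the GFP-positive array of day 7, batch 1, none of the 8 passed, and without that of day 6, batch 2, Hrc and Slc8a1 missed the threshold at adjusted p = 0.0526 and 0.0565. Within GFP-negative cells only Casq2 rose, while 12.5% of all genes were called, and the median difference was 0.37. With the batch covariate Slc8a1 was called too, beside 17.9% of all genes. The ratio of the 3′ to the 5′ probe set of Gapdh, a sign of RNA length, moved with the days in batch 1, at 1.54 to 1.64 on days 7 and 8 and 1.17 to 1.22 on days 5 and 6 of GFP-positive cells, and 1.46 to 1.55 and 1.13 to 1.24 in GFP-negative cells. In batch 2 it was 1.28 to 1.32 late and 1.21 to 1.57 early in GFP-positive cells, and 1.36 to 1.37 and 1.28 to 1.35 in GFP-negative cells. On the cardiomyocyte arrays the ratio was 1.62 and 1.58. In day 8 cells it was 1.54 and 1.28 (GFP-positive) and 1.46 and 1.37 (GFP-negative). Its part in the changes with time and in the cardiomyocyte differences below was not tested.

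The difference between those changes with time was itself tested as an interaction. None of the 8 was called, nor were more than 0.142% of all genes, although limma gave 1728 genes an unadjusted p under 0.05. The largest estimates were for Hrc, at 1.57 ± 0.63 (adjusted p = 0.319), and for Ryr2, at 1.32 ± 0.89 (adjusted p = 0.572). The change with time is therefore not shown to differ between the fractions for any of the 8.

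Selected cardiomyocytes exceeded day 8 GFP-positive cells for 6 of the 8 genes, while 35.6% of all genes were called in either direction. The median difference was 3.34, against -0.156 over all genes tested. These figures include Sln, which entered the test only through the cardiomyocyte arrays and had to be higher there. Without Sln, 5 of 7 were called and the median was 2.94. With the batch covariate 7 of the 8 were called, Ryr2 being added, beside 39.5% of all genes. Against day 8 GFP-negative cells all 8 were higher, beside 37.2% of all genes, with a median difference of 3.79 against -0.119 over all genes, and without Sln 7 of 7 with a median of 3.97. These 2 comparisons share the cardiomyocyte arrays, which came from a different clone by antibiotic selection, not by sorting. Clone, selection, day and batch cannot be told apart here, and the covariate fit gave the cardiomyocytes no batch.

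**Figure D2:**
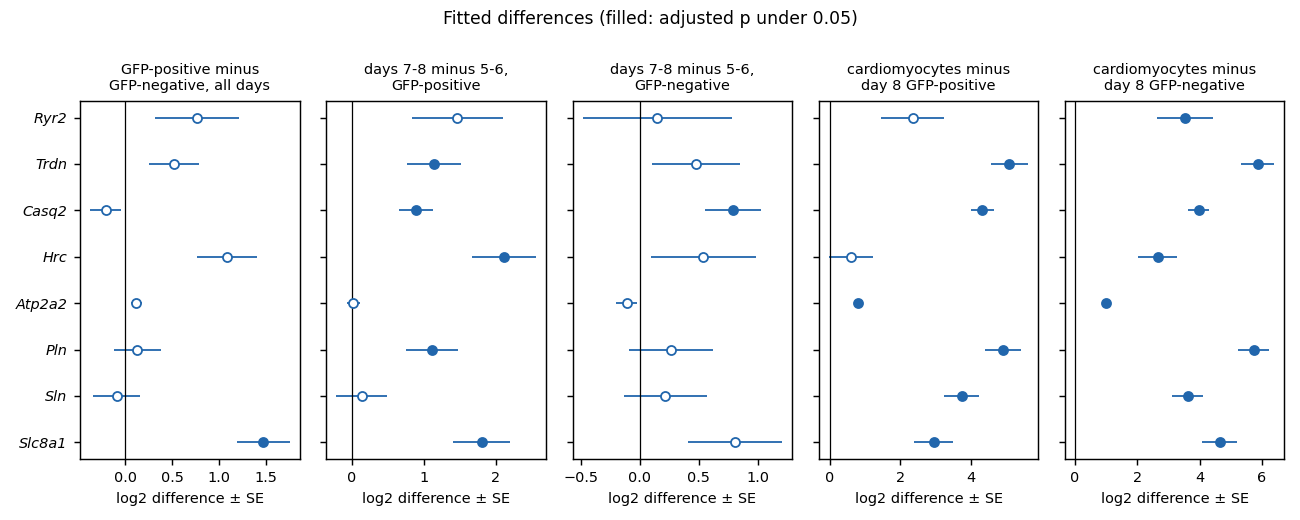
Fitted log2 differences ± SE of the 8 genes in 5 comparisons, with filled points where the adjusted p was under 0.05. The 8 points lie above 0 in both cardiomyocyte comparisons, with Hrc and Ryr2 unfilled against day 8 GFP-positive cells, and scatter around 0 or above in the others.

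Ryr2 encodes the ryanodine receptor of heart muscle, the channel through which the store empties. It read 452.9 and 479.8 in selected cardiomyocytes. In GFP-positive cells it read 77.9 and 2.5 on day 5, 82.3 and 10.6 on day 6, 114.9 and 60.4 on day 7 and 83.6 and 88.9 on day 8, batch 1 before batch 2. In GFP-negative cells it read 30.1 and 6.4, 48.3 and 26.8, 18.4 and 25.5, and 44.7 and 25.6 on the same days. The batch 2 arrays of days 5 and 6 were the low ones in GFP-positive cells, so that batch 1 hardly changed with the days and batch 2 did. The rise from early to late days was accordingly 0.27 within batch 1 and 2.66 within batch 2, and 1.46 ± 0.63 in the pooled fit (adjusted p = 0.118, and 0.0370 with the batch covariate). Myh6 split in the same way: on day 5 it read 729.5 in batch 1 and 19.5 in batch 2 of GFP-positive cells, and on day 6 1077.9 and 37.3. The part of the batches in the Ryr2 values was not tested beyond these numbers.

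Over all days Ryr2 was the higher one in GFP-positive cells for 6 of the 8 day-and-batch pairs, by 0.77 ± 0.45 (adjusted p = 0.385; within batches 1.24 and 0.29). Selected cardiomyocytes exceeded day 8 GFP-positive cells by 2.35 ± 0.89, which just missed the threshold (adjusted p = 0.0562, and 0.0136 with the batch covariate), and day 8 GFP-negative cells by 3.53 ± 0.89 (adjusted p = 0.00768). The call against GFP-negative cells was lost without the GFP-negative array of day 8, batch 2 (adjusted p = 0.0594). A second Ryr2 probe set, 1421126_at, read at most 15.1 on any array and was too dim to test.

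Trdn encodes triadin, the membrane protein that anchors calsequestrin to the ryanodine receptor. Its main probe set read 955.6 and 1125.7 in selected cardiomyocytes. In GFP-positive cells it read 4.5 and 4.6 on day 5, 7.0 and 0.4 on day 6, 30.0 and 2.0 on day 7 and 27.7 and 20.7 on day 8, and in GFP-negative cells it stayed between 1.4 and 11.2. Only the 3 readings of at least 20.7 stand out among the sorted arrays, and 2 of them passed the filter for dim values. Trdn rose by 1.15 ± 0.38 in GFP-positive cells from early to late days (adjusted p = 0.0480; within batches 1.51 and 0.78), a call that was lost with quantile normalization (0.0962), with equal array medians (0.0676) and in most fits with a single array left out. Between the fractions it differed by 0.52 ± 0.27 (adjusted p = 0.316).

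Selected cardiomyocytes stood 5.08 ± 0.53 above day 8 GFP-positive cells for Trdn (adjusted p = 2.38e-05), the largest of the 8 differences there, and 5.87 ± 0.53 above day 8 GFP-negative cells (adjusted p = 8.59e-06). Trdn has 6 probe sets on the array, with differences of 2.07 to 5.08 against day 8 GFP-positive cells in a fit over every probe set. The 5 others reached 22.5 on the cardiomyocyte arrays alone and were tested only for being high there, so their differences are given as values and add no support. None of the 5 was called with time in GFP-positive cells, with estimates from -0.07 to 0.60.

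Casq2 encodes cardiac calsequestrin, the main calcium buffer inside the store. It read 1279.6 and 1212.5 in selected cardiomyocytes. In GFP-positive cells the signal was 23.2 and 31.2 on day 5, 44.3 and 20.4 on day 6, 66.5 and 59.1 on day 7 and 63.5 and 49.3 on day 8. In GFP-negative cells it was 32.3 and 31.0, 55.0 and 28.7, 56.8 and 64.7, and 60.6 and 88.4. The days separated fully in both fractions, with the lowest late reading above the highest early one, while GFP-positive cells were the higher ones in only 3 of 8 pairs.

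The Casq2 rise from days 5 and 6 to days 7 and 8 was 0.90 ± 0.23 in GFP-positive cells (adjusted p = 0.0207; within batches 0.88 and 0.92) and 0.79 ± 0.23 in GFP-negative cells (adjusted p = 0.0438; within batches 0.41 and 1.17). The interaction was 0.10 ± 0.33, with a 95% interval from -0.61 to 0.82. Both calls were lost with quantile normalization (adjusted p = 0.128 and 0.0725) and with equal array medians (0.111 and 0.0824). The call in GFP-positive cells was also lost without the GFP-positive array of day 6, batch 2 (0.0980), day 7, batch 1 (0.0871), or day 8, batch 1 (0.0718), and that in GFP-negative cells without most single arrays, up to 0.184 without the GFP-negative array of day 6, batch 2. Between the fractions the difference was -0.21 ± 0.17 over all days (95% interval from -0.56 to 0.15; adjusted p = 0.552). Cardiomyocytes exceeded day 8 GFP-positive cells by 4.32 ± 0.33 (adjusted p = 2.92e-06) and day 8 GFP-negative cells by 3.97 ± 0.33 (adjusted p = 4.85e-06). The only Casq2 probe set carries the suffix that the manufacturer gives to probes shared by several transcripts.

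Hrc encodes the histidine-rich calcium-binding protein, a luminal partner of triadin that also binds the pump. Selected cardiomyocytes read 521.3 and 496.1. In GFP-positive cells the signal was 96.5 and 33.3 on day 5, 105.7 and 35.4 on day 6, 395.3 and 141.1 on day 7 and 321.1 and 341.4 on day 8. In GFP-negative cells it was 63.6 and 31.2, 56.3 and 43.8, 120.5 and 37.8, and 97.9 and 57.6. All 4 late GFP-positive readings exceeded the 4 early ones and all 8 GFP-negative ones.

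Hrc had the largest rise with time of the 8 in GFP-positive cells, 2.11 ± 0.45 (adjusted p = 0.00964; within batches 1.75 and 2.46), against 0.54 ± 0.45 in GFP-negative cells (adjusted p = 0.461). Over all days the fractions differed by 1.08 ± 0.31 with 7 of 8 pairs higher in GFP-positive cells (adjusted p = 0.0903, and 0.00448 with the batch covariate; within batches 1.17 and 0.99), and Hrc passed without the GFP-positive array of batch 2 of day 5 (0.0427) or day 6 (0.0493). On day 8 alone the difference was 2.04 ± 0.63 (adjusted p = 0.105, and 0.00756 with the covariate). Hrc is also the gene on which day 8 GFP-positive cells stood closest to cardiomyocytes: the difference was 0.61 ± 0.63 (adjusted p = 0.488), with a 95% interval from -0.75 to 1.97. Against day 8 GFP-negative cells the difference was 2.65 ± 0.63 (adjusted p = 0.00542), and it missed the threshold without the GFP-negative array of day 8, batch 2 (0.0526).

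Atp2a2 encodes SERCA2, the pump that refills the store, and is also made in many non-muscle cells. Its 6 probe sets gave different pictures. The brightest on average, 1427250_at, read 4298.5 and 4181.1 in selected cardiomyocytes, 2357.4 to 2942.0 in GFP-positive cells and 2077.4 to 2772.5 in GFP-negative cells. It changed by 0.02 ± 0.09 from early to late days in GFP-positive cells (95% interval from -0.17 to 0.21; adjusted p = 0.891) and by 0.12 ± 0.06 between the fractions (adjusted p = 0.320). Cardiomyocytes were higher by 0.82 ± 0.12 than day 8 GFP-positive cells (adjusted p = 3.34e-04) and by 0.99 ± 0.12 than day 8 GFP-negative cells (adjusted p = 8.15e-05).

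Of the other Atp2a2 probe sets, 1452363_a_at differed between the fractions and 1416551_at did not pass there. Probe set 1452363_a_at read 6143.4 and 4931.2 in selected cardiomyocytes, 341.4 and 141.9 on day 5, 210.9 and 165.6 on day 6, 530.4 and 409.3 on day 7 and 475.7 and 465.6 on day 8 of GFP-positive cells, and had a median of 178 in GFP-negative cells. In the fit over every probe set it was higher in GFP-positive cells over all days by 0.90 ± 0.19 (adjusted p = 0.0315), where 2 of the 22 tested probe sets of the 8 genes and 1.93% of 24382 probe sets were called. Probe set 1416551_at read 7991.5 and 8060.8 in cardiomyocytes, 313.0 to 810.3 on days 5 and 6 and 919.2 to 1195.5 on days 7 and 8 of GFP-positive cells, and 286.7 to 698.2 in GFP-negative cells. Its difference between the fractions was 0.84 ± 0.22 (adjusted p = 0.0680, and 0.00690 with the batch covariate).

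From early to late days in GFP-positive cells, 1452363_a_at rose by 1.18 ± 0.27 (adjusted p = 0.0137), 1416551_at by 1.06 ± 0.31 (0.0326) and 1437797_at by 0.65 ± 0.17 (0.0204), as 10 of the 22 probe sets and 17.4% of all probe sets were called. The last of these was the single tested probe set of the 8 genes that was lower in cardiomyocytes, where it read 59.1 and 54.7, against 138.8 and 150.4 in day 8 GFP-positive cells and 95.7 and 96.0 in day 8 GFP-negative cells. Its differences were -1.25 ± 0.24 (adjusted p = 0.00142) and -0.69 ± 0.24 (adjusted p = 0.0364). Against day 8 GFP-positive cells the other 4 tested Atp2a2 probe sets were higher in cardiomyocytes, by 0.82 to 3.53. In these cardiomyocyte comparisons 18 and 20 of the 22 probe sets were higher and 1 was lower, beside 34.4% and 34.9% of all probe sets called. Of the 22, 7 (5 of Trdn, 1 of Slc8a1 and 1 of Sln) reached 22.5 on the cardiomyocyte arrays alone and had to be higher. Among the other 15, 11 and 13 were higher and 1 was lower. Which Atp2a2 transcripts each probe set detects was not tested.

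**Figure D3:**
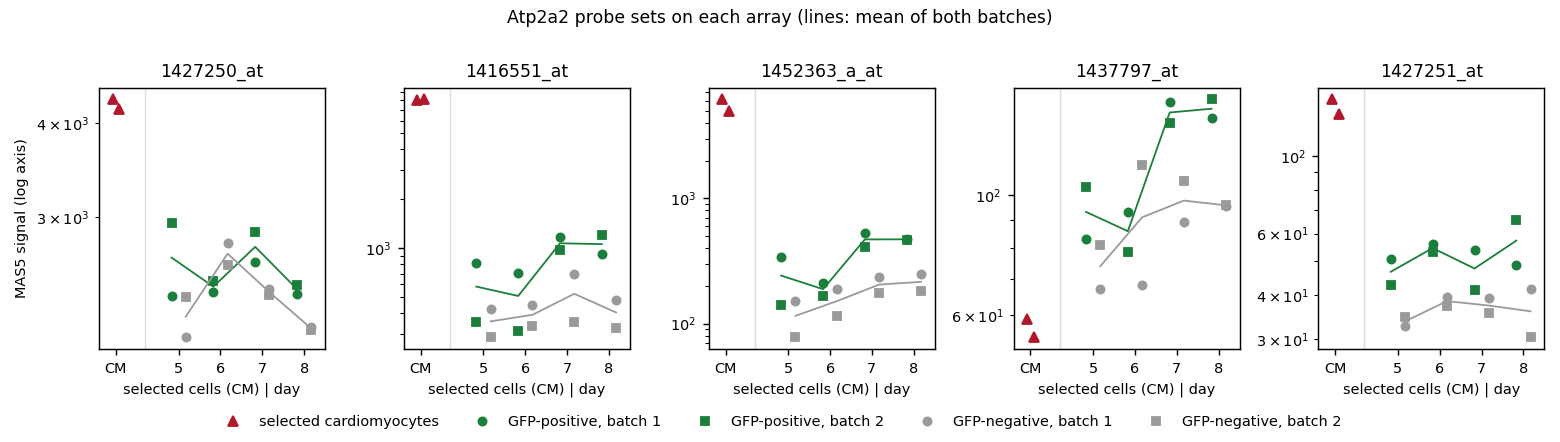
Signal of 5 Atp2a2 probe sets on every array (log axes of different range), drawn as for the gene levels, with selected cardiomyocytes (CM) on the left. The probe set 1427250_at stays within 2077.4 to 2942.0 on all sorted arrays, while 1416551_at and 1452363_a_at are highest among sorted cells in GFP-positive cells of days 7 and 8, and 1437797_at is lowest in cardiomyocytes.

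Pln encodes phospholamban, which restrains SERCA2 until it is phosphorylated. The used probe set read 1809.7 and 1458.5 in selected cardiomyocytes. In GFP-positive cells it read 16.6 and 4.0 on day 5, 35.8 and 10.9 on day 6, 47.8 and 18.9 on day 7 and 32.7 and 68.9 on day 8, and in GFP-negative cells it stayed between 13.3 and 28.2. Early and late GFP-positive readings overlapped. The rise was 1.11 ± 0.36 (adjusted p = 0.0448; within batches 0.56 and 1.67), and the call was lost without any of 4 GFP-positive arrays, those of day 5, batch 2 (0.165), day 6, batch 2 (0.194), day 7, batch 1 (0.194), and day 8, batch 2 (0.164), among others. It was also lost with quantile normalization (0.140) and with equal array medians (0.108). Over all days the fractions differed by 0.13 ± 0.25 (95% interval from -0.42 to 0.67; adjusted p = 0.833).

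A second Pln probe set, 1460332_at, separated the groups more clearly, but most of its readings on sorted arrays were dim. In GFP-positive cells it read 3.2 and 8.4 on day 5, 7.0 and 10.5 on day 6, 40.2 and 12.5 on day 7 and 53.9 and 73.1 on day 8, against 5.3 to 12.8 on the 8 GFP-negative arrays. On sorted arrays it passed the filter for dim values only on 3, those of GFP-positive cells that read 40.2, 53.9 and 73.1. All early and all GFP-negative readings were under that filter. The 2 differences that follow are therefore taken from dim values, and their size depends on the offset. This probe set rose in GFP-positive cells by 1.73 ± 0.28 (adjusted p = 0.00467). On day 8 it exceeded GFP-negative cells by 1.95 ± 0.40 (adjusted p = 0.0276). There it was the only one called of the 22 probe sets, beside 1.89% of all probe sets. The third, 1423359_at, was not called in either comparison (0.47 ± 0.28 and 0.72 ± 0.39). All 3 were far higher in cardiomyocytes than in day 8 GFP-positive cells, by 4.61 to 4.90 (adjusted p = 4.34e-06 to 1.78e-05). Against day 8 GFP-negative cells the used probe set was higher by 5.73 ± 0.51 (adjusted p = 7.23e-06).

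Sln encodes sarcolipin, a small inhibitor of the same pump that in the mouse heart is known mainly from the atria. One probe set read 167.4 and 119.5 in selected cardiomyocytes and at most 9.6 on any sorted array, under the filter for dim values. The fitted difference from day 8 GFP-positive cells was 3.74 ± 0.50 and from day 8 GFP-negative cells 3.62 ± 0.50. Sln was tested only because it was high in cardiomyocytes, so these are values and no test of that direction. Since every sorted reading was near the floor, the size of that difference is set largely by the offset, and no order among the sorted groups can be read. The other Sln probe set read at most 12.2 on any array, cardiomyocytes included.

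Slc8a1 encodes the sodium-calcium exchanger NCX1, which removes calcium across the surface membrane and is present in the early heart tube. Selected cardiomyocytes read 496.8 and 591.9. In GFP-positive cells the signal was 22.4 and 7.0 on day 5, 20.4 and 8.9 on day 6, 79.8 and 50.6 on day 7 and 74.0 and 56.8 on day 8. In GFP-negative cells it was 5.0 and 2.8, 5.9 and 1.3, 19.6 and 1.8, and 26.6 and 7.7. The late GFP-positive readings exceeded all other sorted readings, and GFP-positive cells were higher in 8 of 8 pairs. Slc8a1 passed the filter for dim values on 5 of the 16 sorted arrays, 4 GFP-positive and 1 GFP-negative. All readings of days 5 and 6 were under it, so the pairs of those days compare dim values.

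Over all days Slc8a1 was higher in GFP-positive cells by 1.47 ± 0.28 (adjusted p = 0.0167; within batches 1.35 and 1.59). The call was lost without the GFP-positive array of day 7, batch 1 (adjusted p = 0.0556), or of day 8, batch 1 (0.0506), and with the mean of all probe sets (0.51, adjusted p = 0.166). With time it rose by 1.80 ± 0.40 in GFP-positive cells (adjusted p = 0.0109), against 0.81 ± 0.40 in GFP-negative cells (adjusted p = 0.196, and 0.0359 with the batch covariate). Cardiomyocytes were higher than day 8 GFP-positive cells by 2.94 ± 0.56 (adjusted p = 0.00156) and than day 8 GFP-negative cells by 4.64 ± 0.56. Of its 4 probe sets, 1 was called between the fractions over all days and 2 rose with time in GFP-positive cells. In both cardiomyocyte comparisons 3 were higher in cardiomyocytes (1440201_at among them, tested only through those arrays). Probe set 1420210_at, dim throughout, was called in none. In GFP-negative cells 1 of the 22 probe sets rose with time, that of Casq2, beside 9.99% of all probe sets.

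**Figure D4:**
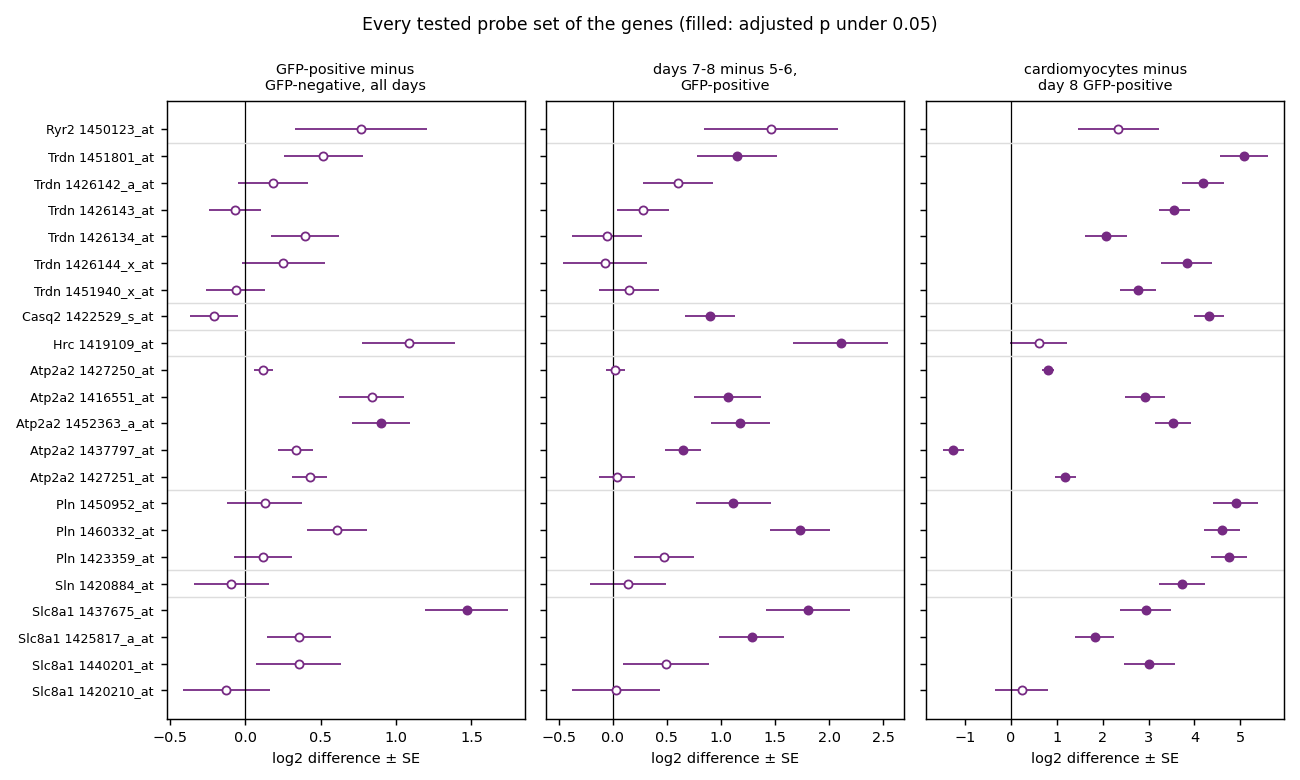
Log2 differences ± SE of the 22 tested probe sets in 3 comparisons, grouped by gene, with filled points where the adjusted p was under 0.05. Of the 22, 2 are filled for GFP-positive against GFP-negative cells, 10 for late against early days in GFP-positive cells, and 19 for cardiomyocytes against day 8 GFP-positive cells, of which 1 lies below 0 and 7 were tested only through the cardiomyocyte arrays.

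Set against the mean of the cardiomyocyte arrays on the same probe set, day 8 GFP-positive cells had 65.1% of the signal for Hrc and 56.7% for the brightest Atp2a2 probe set. For Ryr2 the share was 18.5% and for Slc8a1 12.0%, while for Casq2 it was 4.53%, for Pln 3.11% and for Trdn 2.33%. The 2 batches gave 63.1% and 67.1% for Hrc, 17.9% and 19.1% for Ryr2, and 2.00% and 4.22% for Pln. In day 8 GFP-negative cells the shares were 15.3% for Hrc, 50.3% for Atp2a2, 7.54% for Ryr2, 3.15% for Slc8a1, 5.98% for Casq2, 1.47% for Pln and 1.06% for Trdn. The other tested Atp2a2 probe sets gave widely different shares in GFP-positive cells, 13.2% for 1416551_at, 8.50% for 1452363_a_at, 41.5% for 1427251_at and 254% for 1437797_at.

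**Figure D5:**
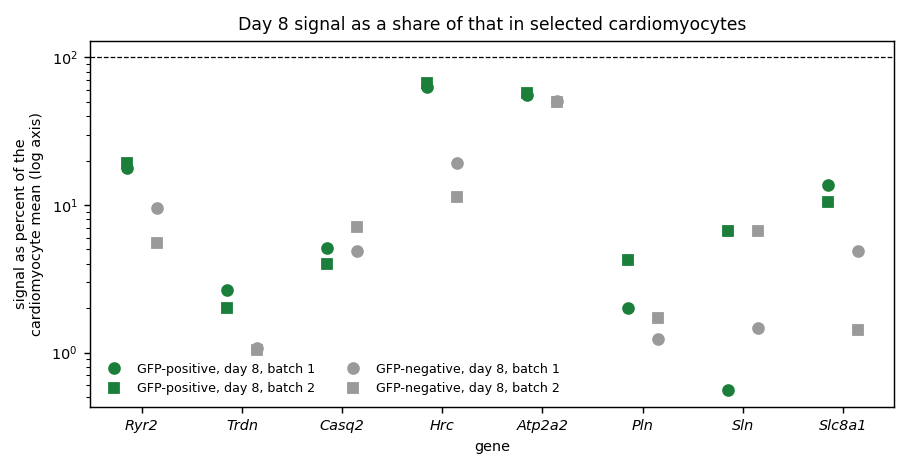
Day 8 signal of each gene as a percent of its mean in selected cardiomyocytes (log axis; dashed line at 100), GFP-positive in green to the left of GFP-negative in grey, 1 point per batch. Hrc and Atp2a2 are nearest to the line in GFP-positive cells, where Trdn, Casq2 and Pln are below 6%.

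Marker genes of other cell types differed between the same groups. Which cells carried them, and their part in the results, was not tested. Selected cardiomyocytes carried more signal of smooth muscle genes, 18301.3 to 19226.8 summed over 8, against 5350.8 to 5463.3 in day 8 GFP-positive cells. Of the 8, 5 were called higher, but Myh11 and Lmod1 were tested only through the cardiomyocyte arrays and had to be higher there. Of the other 6, 3 were called, Tagln, Des and Cnn1, and whether the cardiomyocytes themselves made them was not tested. Fibroblast and matrix genes summed over 8 to 22618.2 to 22678.3, against 2997.8 to 3017.8, with 5 of 8 higher. The sum of 13 skeletal muscle markers was 2112.6 to 2210.1, against 570.8 to 572.1. Of these markers, 4 were tested and Acta1, the actin of skeletal muscle that heart cells also make, was higher by 2.35 ± 0.80 (adjusted p = 0.0350), while Myod1, Myog and Myf5 and 6 others were under 22.5 on both cardiomyocyte arrays. All 12 endothelial and all 7 blood markers tested were lower in selected cardiomyocytes, as were 9 of 10 endoderm markers. Of the endothelial genes 5, Pecam1 and Tie1 among them, were under 22.5 on both arrays. Of 5 neural markers tested, Tubb3 was higher by 5.11 ± 0.49 (adjusted p = 1.33e-05), and Otx2 and Pax6 were lower. Of 10 pluripotency markers 1, Sox2, was called, as lower. Of the 17 cardiomyocyte markers 4 were called higher and 0 lower (median difference 1.73; 8 higher with the batch covariate). Of the 13379 genes tested, 1835 were called higher and 2922 lower in this comparison.

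Between the fractions over all days, where 2.68% of all genes were called (5.41% with the batch covariate), 0 of the 17 cardiomyocyte markers were called (17 positive, median 1.35; 7 with the covariate). GFP-positive cells were higher for 9 of 12 endothelial markers (12 with the covariate) and for 2 of 10 endoderm markers, Apob and Hnf4a (5 with it). Of 10 pluripotency markers 4 were lower in them, Nanog, Sox2, Zfp42 and Utf1 (6 with it), and 1, Klf4, was higher, and Otx2, of 5 neural markers tested, was lower. With time in GFP-positive cells, beside 19.4% of all genes (25.3% with the covariate), 10 of the 17 cardiomyocyte markers rose (14 with it), as did 7 of 10 endoderm (8 with it) and 5 of 12 endothelial markers (5 with it). Of 8 fibroblast and matrix genes 0 were called there, and 4 with the covariate. Other markers called there were Hbb-y, Ptprc, Sox2, Klf4, Pax6, Acta1 and Mylpf, all higher, and Tubb3, lower. In GFP-negative cells Casq2 rose, and 12.5% of all genes were called (17.9% with the covariate). There 6 of 8 fibroblast and matrix genes rose (6 with it) and 0 of the 17 cardiomyocyte markers were called (3 with it). The blood genes Hbb-y (5.32 ± 1.28) and Ptprc (3.81 ± 0.70) rose too, as did Tnni2 and Mylk. Foxa2, Amn, Sox7, Nanog, Utf1 and Otx2 fell in the same cells.

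Another 5 lists held other genes of calcium handling, to be read against the 35.6% of all genes called for cardiomyocytes against day 8 GFP-positive cells. The counts for release genes (5 of 11), pumps and exchangers (2 of 6) and kinases (4 of 11) are near that share and are no result about those lists. Among release channels and couplon proteins 11 were tested, and 3 were higher and 2 lower in selected cardiomyocytes than in day 8 GFP-positive cells. Jph2, which holds the store close to the surface membrane, was higher by 2.36 ± 0.43 (adjusted p = 0.00116) and Fkbp1a, a subunit that binds release channels, by 0.55 ± 0.12 (0.00425). Tmem38a, a counter-ion channel of the store named after its value was seen, was higher by 1.22 ± 0.32 (0.0108). The inositol trisphosphate receptors Itpr2 and Itpr3 were lower, by -2.07 ± 0.31 and -2.13 ± 0.53 (adjusted p = 3.04e-04 and 0.00773). Itpr2 read 20.7 and 23.8 in cardiomyocytes, against 94.9 and 139.4 in day 8 GFP-positive cells.

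Among luminal calcium binders 9 of 11 were higher in selected cardiomyocytes and none lower. Casq1, the calsequestrin of fast skeletal muscle, read 728.2 and 633.2, against 105.3 and 113.2 in day 8 GFP-positive cells, a difference of 2.56 ± 0.47 (adjusted p = 0.00111). Calu, Rcn2 and Sdf4, which are low-affinity binders of the secretory pathway, were higher by 1.27 ± 0.24, 0.95 ± 0.26 and 0.60 ± 0.17. Of 6 other pumps and exchangers tested 2 were lower, Atp2a3, the SERCA3 pump of non-muscle cells, by -2.46 ± 0.52 (0.00306) and Slc8b1, the mitochondrial exchanger, by -0.98 ± 0.36 (0.0466). Of 11 kinases, phosphatases and sensors 4 were higher, led by Camk2d, a kinase that phosphorylates phospholamban and the ryanodine receptor, at 1.70 ± 0.33 (0.00185), and S100a1, a calcium sensor of the pump and channel, at 1.53 ± 0.34 (0.00374). The other 2 of the 4 were Sri and Camk2g, at 0.80 ± 0.27 and 0.68 ± 0.24. None of 6 store-operated entry genes was called.

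With time in GFP-positive cells, where 19.4% of all genes were called, 4 of 11 release and couplon genes rose, Itpr2 (0.97 ± 0.22), Tmem38a (0.96 ± 0.23), Jph2 (1.19 ± 0.30) and Fkbp1b (0.79 ± 0.25), and 1, Fkbp1a, fell by 0.27 ± 0.09 on the log2 scale. Single genes rose in each of the other lists, 1 of 11 luminal binders, 1 of 11 kinases and sensors, 1 of 6 store-operated entry genes and 1 of 6 pumps: Srl (sarcalumenin, a luminal binder that stabilises the pump) by 1.69 ± 0.30 (adjusted p = 0.00577), S100a1 by 1.12 ± 0.24, Stim1, the store's calcium sensor, by 0.83 ± 0.23, and Atp2c1, a Golgi pump, by 0.50 ± 0.14. With the batch covariate, beside 25.3% of all genes, 3 of 11 luminal binders rose, Sdf4 (adjusted p = 0.0231) and Hspa5 (0.0417) being added, and of the kinases and phosphatases Ppp1ca was lower (0.0321). In GFP-negative cells Sdf4 (0.70 ± 0.12), Atp2b1, a pump of the surface membrane (0.58 ± 0.16), and Atp2a3 (1.32 ± 0.37) rose, while Fkbp1a, Itpr3, Asph and Ppp1r1a fell, beside 12.5% of all genes called. By list these were 3 of 11 release genes, 2 of 6 pumps, 1 of 11 luminal binders, 1 of 11 kinases and 0 of 6 store-operated entry genes, and the covariate added Sri among the kinases and sensors (0.0115). Between GFP-positive and GFP-negative cells over all days, 5 genes of the lists were called, all higher (2 of 11 release genes, 2 of 6 store-operated entry genes and 1 of 11 luminal binders, beside 2.68% of all genes): Srl by 1.03 ± 0.21 (adjusted p = 0.0237), Itpr2 by 0.78 ± 0.15, Orai1 by 0.48 ± 0.11, Stim2 by 0.40 ± 0.09 and Fkbp1a by 0.26 ± 0.06.

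Across the 16 sorted arrays, Hrc and Slc8a1 were the closest pair of the 8 genes (Pearson r = 0.940 on the log2 scale), followed by Hrc and Ryr2 (0.812). The brightest Atp2a2 probe set stood apart, with r from -0.401 to 0.114 against the others. Among all genes tested, those most like Hrc were Npr3 (0.963), Atp1b1 (0.955) and Synpo2l (0.954), and those most like Ryr2 were Nexn (0.963), Sphkap (0.957) and Oprl1 (0.929). Slc8a1 was followed most closely by Tcim (0.949), Ankrd1 (0.932) and Actn2 (0.930), and Casq2 by Dnaja4 (0.948), Mamdc2 (0.937) and Ccl3 (0.932). No gene followed the Atp2a2 probe set above 0.781 (Tubgcp6). Pln and Trdn were closest to Rnf31 (0.936) and Clps (0.912), while Sln, at the floor, reached 0.703. These correlations describe 16 arrays that share batches, days and 2 rounds of RNA amplification, and carry no test.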

How the data were processed

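RNA of 16 sorted samples and 2 selected cardiomyocyte samples was amplified in 2 rounds, per the labels, and read on Affymetrix arrays of 45101 probe sets. The authors made linear MAS5 signals, an intensity per probe set, using GCOS 1.4 (named with MAS5 in the submitters' processing notes). The mean of each array, trimmed by 2% at each end, was 150.0008 to 150.0012. Depth in reads does not apply, and no detection calls were used here, so dimness was judged by signal alone.

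Groups and batches came from the titles. Controls (64), probe sets without a symbol (9160) and those with several (932) were left out. Symbols of 34754 probe sets were checked through Entrez identifiers, which changed 0. A gene was represented by its probe set of highest mean signal, with those of suffix _x_at used only where the gene had no other. The log2 offset of 6.8 is the 25th percentile of all values. A limma 3.58.1 model (R 4.3.3) of the 9 group means was fitted to all 18 arrays (variance trend, 9 residual degrees of freedom, Benjamini-Hochberg adjustment over all 13379 genes, threshold 0.05), and a second fit took every probe set. The fit was tested on simulated data with independent noise and no batch differences, so that test does not cover batch effects.

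Titles number the batches, so batch was taken to pair samples across groups. Batch differences correlated across genes between 28 pairs of groups with r from -0.183 to 0.653 (median 0.082, 13 over 0.1). The covariate fit gave the cardiomyocytes no batch and had 8 residual degrees of freedom. Alternatives covered the offset, scaling, filter, probe set, variance model, batch, arrays in the fit, days, the cardiomyocytes' comparison group and leaving out each array.

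The 8 genes were given by name, and they and the lists were chosen with earlier results of these data known. Other genes were named by rule: up to 4 of a list past the threshold, by lowest p, or the top 2 where none passed, and the 3 genes most correlated with each of the 8. Exceptions are stated. Promoters are RefSeq's (GRCm38.p6). Plots used Python 3.11.15 and matplotlib 3.10.9.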

Additional observations from a re-analysis of the deposited data

How the results depend on the processing

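The alternatives changed the calls between fractions and days more than those of the cardiomyocytes, and the cause was not tested. The number of the 8 genes called between fractions over all days was 1, but 2 with batch as a replicate block and 2 over every probe set, and 0 to 2 when single arrays were left out. On day 8 it was 0, but 1 with the mean of all probe sets, 1 over every probe set and 2 with the batch block. From early to late days in GFP-positive cells it was 5, but 2 with quantile normalization, 3 with equal array medians (Atp2a2 among them, as lower), 3 without a filter, 3 with the sorted arrays alone, 3 for day 8 against day 5, and 0 to 6 with single arrays left out. In GFP-negative cells it was 1, but 2 with the batch block, 0 to 1 with single arrays left out, and 0 with quantile normalization, equal array medians, no filter, array weights, the sorted arrays alone or day 8 against day 5. Against day 8 cells it stayed at 6 to 7 for GFP-positive and 6 to 8 for GFP-negative. On the probe sets used for the 8 genes, the batch block changed no other call than those of Hrc, Slc8a1 and Ryr2 given above; it changed calls of other probe sets and of genes in the lists.

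The median cardiomyocyte difference of the 8 genes was 2.64 with the larger offset of 22.5 and 1.83 with the mean of all probe sets against day 8 GFP-positive cells, and 4.35 with an offset of 1 and 2.77 with the mean of all probe sets against day 8 GFP-negative cells. The median difference between fractions on day 7 was 0.59, with 1.29 within batch 1, 0.08 within batch 2 and 0.12 to 1.38 with single arrays left out. On day 6 it was -0.05, with 0.48 within batch 1, -0.32 within batch 2 and -0.38 to 0.71 with single arrays left out, the highest being the reversed value 0.714 without the GFP-positive array of day 6, batch 2. With equal array medians Atp2a2 fell by 0.41 (log2; adjusted p = 0.0135) from early to late days in GFP-positive cells. That scaling shifted the median of all genes by -0.41 there, by -0.21 on days 7 and 8 between fractions, by -0.29 in the interaction, and by 0.51 and 0.29 for cardiomyocytes against GFP-positive and GFP-negative cells. Quantile normalization shifted them by -0.16, -0.09, -0.10, 0.19 and 0.09 in the same order.

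Genes called in all ranged from 129 to 724 between fractions over all days, 0 to 38, 0 to 1, 0 to 3 and 0 to 728 on days 5 to 8, 468 to 4583 and 315 to 2436 with time in GFP-positive and GFP-negative cells, 0 to 157 for the interaction, and 2886 to 8383 and 3074 to 8507 for the cardiomyocytes. The 4583 came from equal array medians, and 2436, 8383 and 8507 from the fit over every probe set, which tests more features. Signal near background limits Sln, Trdn and Pln in sorted cells, and Slc8a1 in GFP-negative cells and on days 5 and 6. It also limits Ryr2 in GFP-positive cells of batch 2 on days 5 and 6 and on some GFP-negative arrays. A group reduced to 1 array borrowed its spread from the other groups.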
